A study of Mus musculus with 8 samples.

Results

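DNA replication and S-phase genes were followed across mouse molar tooth germs kept in culture. The set holds 39 genes, chosen by name from the 35896 genes of the deposited table, and all 39 were found and were among the 19022 genes that passed the filter on low counts. They cover the MCM2-7 helicase (6 genes), origin licensing (2), helicase activation (6), the sliding clamp and its loader (5), polymerases and primase (6), Okazaki fragment maturation (2), nucleotide supply (4), cyclin E and E2F factors (4) and chromatin assembly with histone mRNA processing (4).

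In G1, Cdc6 and Cdt1 load the ring of Mcm2 to Mcm7 onto replication origins. At the start of S phase, kinases that include cyclin E with Cdk2 bring in Cdc45 and the GINS complex, which turn the loaded ring into an active helicase. Primase and the DNA polymerases then copy both strands. The Pcna clamp holds the lagging and leading strand polymerases to the template, and Fen1 and Lig1 join the fragments of the lagging strand. Many of these genes are transcribed as cells enter S phase, under E2F factors that the Rb protein holds in check during G1, so their mRNA is widely read as a sign of proliferation. In the tooth germ both the epithelium and the mesenchyme beneath it proliferate as the bud forms.

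All germs came from embryos carrying BRE-GFP, a reporter of BMP-Smad signalling, and all were cultured and treated for 1 day. Germs of embryonic stage E12.5 were given the solvent DMSO alone, SB431542, which blocks the type I receptors for TGF-beta and activin, or SIS3, which blocks Smad3. Germs of stage E13.5 were given DMSO alone. Each of the 4 groups has 2 deposited columns. The sources used here give no doses, no number of germs per culture and no word on separate cultures. In the main fit p-values rest on the spread between the 2 SIS3 libraries, which may be technical. The other groups borrow that spread and add none of their own. The germs were taken whole, so the inhibitors met every cell type, and a lower level in bulk RNA cannot be divided between fewer cells in S phase and less RNA per cell.

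In every group but SIS3 the paired columns were nearly alike. Their median squared difference was 1.08 to 1.09 times that of binomial noise for single-transcript genes and 1.81 to 2.31 times for the rest. In the SIS3 pair these values were 11.4 and 13.7 times, against which the other 3 pairs were close. Each of those 3 pairs was therefore summed and counted as 1 library, which left 5 libraries of 5995709 to 30975010 counts. Single genes of the 39 still differed within a summed pair. The largest log2 ratios in size were 0.31 in E12.5 DMSO (Cdc45), 0.43 with SB431542 (Rfc3) and 0.80 at E13.5 (Cdc6). Both SIS3 libraries were made with a poly(A)-selecting TruSeq kit and the other 3 with a SMARTer low-input kit, so SIS3 and kit cannot be told apart in any value below. As a check of the labelled tissue, all 11 markers of dental mesenchyme were detected in every library, and of 15 epithelial markers Shh and Fgf8 were at 0 in SIS3 library 1 and at E13.5. All 3 comparisons share the single E12.5 DMSO library, so their directions are not independent of each other.

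Levels are counts scaled to the library total with TMM factors (CPM), and folds are log2 fold changes from edgeR with their standard error (SE). Together the 39 genes summed to 3068 CPM in E12.5 DMSO, 2382 with SB431542, 1797 and 1804 in the 2 SIS3 libraries and 2658 at E13.5. As a share of all counts this was 0.2997%, 0.2413%, 0.1817%, 0.1881% and 0.2542%. The sum was highest in E12.5 DMSO and lowest, and almost equal, in the 2 SIS3 libraries. Per kilobase of mRNA, Pcna stood highest in E12.5 DMSO at 72.6 CPM per kb, followed by Mcm4 (63.9) and Mcm3 (59.5), and E2f2 stood lowest at 3.08 CPM per kb.

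With SIS3, 8 of the 39 genes fell and none rose (edgeR quasi-likelihood test, Benjamini-Hochberg adjusted p under 0.05), where 3.03% of all genes tested were called lower and 0.794% higher. The 8 were Mcm3, Mcm6, Lig1, Rrm2, Tk1, Ccne2, E2f2 and Uhrf1. The median log2 fold change was -0.70, against 0 over all genes, and 38 of 39 were below 0, with Slbp the exception at 0.05. At an unadjusted p under 0.05, 19 were lower, with a background of 11%, and 0 were higher; DESeq2 called 0 higher. With SB431542 the median was -0.37 and all 39 were below 0 (38 when only library totals were used for scaling), where 47.4% of all genes were. This was not particular to the set: a list of 30 mitotic genes had a median of -0.68, with all 30 below 0. None of the 39 was called by edgeR or DESeq2. Of all genes tested, edgeR called none (0% higher, 0% lower), where DESeq2 called 4 lower. From E12.5 to E13.5 the median was -0.23 with 27 below 0 (23 after removal of GC and length trends) and 12 above, and edgeR and DESeq2 called none, where 4.06% of all genes were called higher and 1.17% lower.

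**Figure D1:**
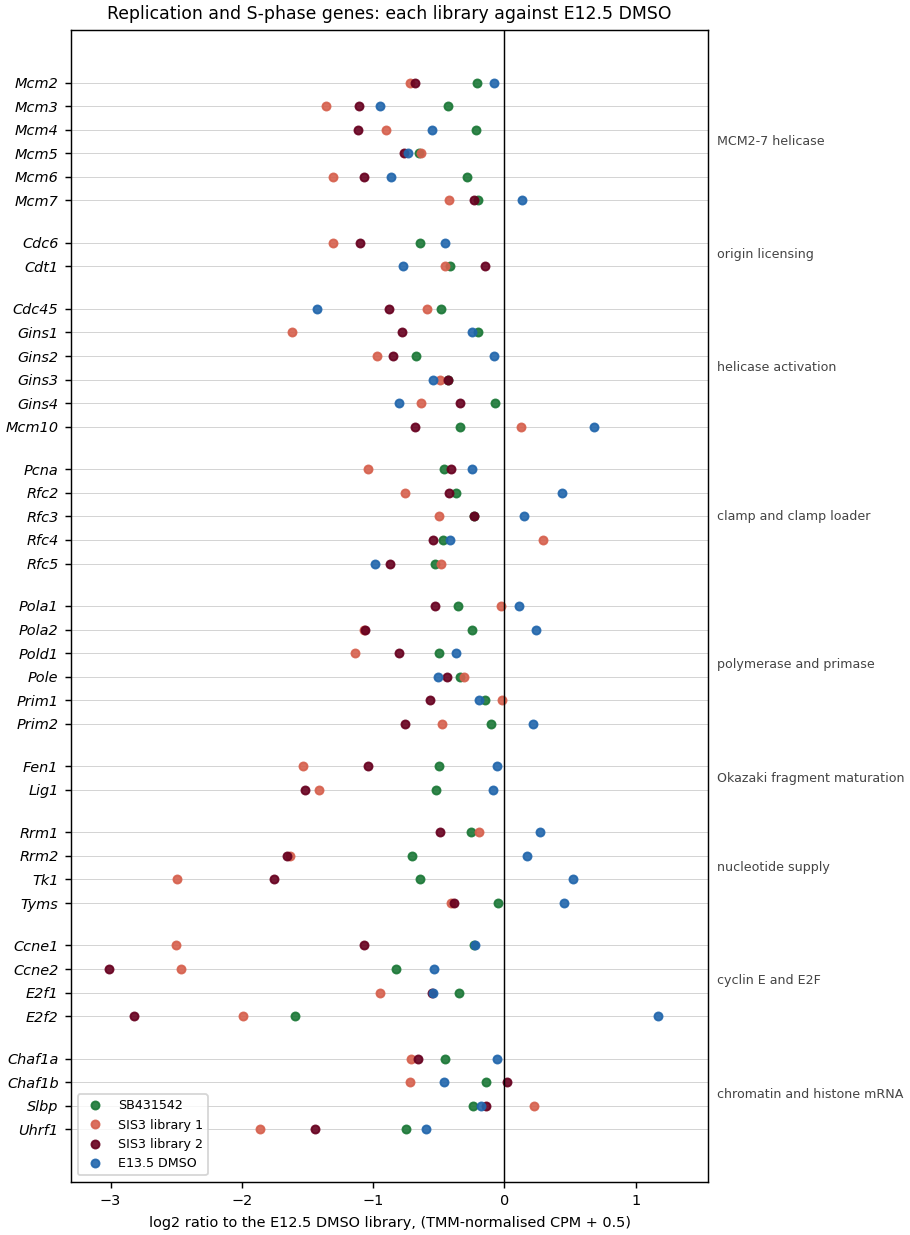
Log2 ratio of each library to E12.5 DMSO (TMM-normalised CPM plus an offset of 0.5) for each of the 39 genes, ordered by role; each point is 1 library. With this scaling the SB431542 points lie left of 0 for all 39 genes (38 with library totals), the 2 SIS3 points lie left of 0 for 35, and the E13.5 points lie on both sides.

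The orders of the libraries were compared directly, without a fit. Both SIS3 libraries lay below E12.5 DMSO for 35 of 39 genes, against 40.5% of all genes tested. Both lay below each of the other 3 libraries for 24 of 39 genes (61.5%), against 24% of all genes. E12.5 DMSO was the highest of the 5 libraries for 24 of 39 genes (61.5%), against 15.3% of all genes.

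The 6 genes of the MCM2-7 helicase, the ring that unwinds the parental strands, were all below 0 with SIS3 (median -0.86) and 2 of them fell. Mcm3 (ENSMUSG00000041859; GRCm38 chromosome 1, 20802968 to 20820312, minus strand) had 180 CPM in E12.5 DMSO, 134 with SB431542, 69.9 and 83.5 with SIS3 and 93.4 at E13.5. Its log2 fold change with SIS3 was -1.23 (SE 0.29, adjusted p = 0.032, n = 2 against 1 in the edgeR fit). Both SIS3 libraries and the E13.5 library were low and the SB431542 library lay between. Mcm6 (ENSMUSG00000026355; chromosome 1, 128331590 to 128359664, minus strand) followed the same order, with 257 CPM in E12.5 DMSO, 212 with SB431542, 104 and 122 with SIS3 and 141 at E13.5. Its log2 fold change was -1.19 with SIS3 (SE 0.29, edgeR adjusted p = 0.035). The other 4 ranged from -1.01 (Mcm4, adjusted p = 0.072 in edgeR) to -0.33 (Mcm7). Of the Mcm7 transcript's 31-base words, 33.4% also occur in other genes, and 12.6% of its exon bases overlap other genes. The calls of Mcm3 and Mcm6 were lost without predicted genes, pseudogenes and receptor genes in the fit, after removal of GC and length trends, and without the second E13.5 column, and Mcm6 also without the first.

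The promoters of Mcm3 and Mcm6 are shown because E2F motifs lie in them. Each window runs from 250 bases before the gene's start to 50 after it (RefSeq, GRCm38.p6), is written 5′ to 3′ on the gene's strand and has in capitals each match to TTTCCCGC, TTTGGCGC, TTTCGCGC or TTTGCCGC on either strand.
Mcm3 (chr1:20820263-20820562, minus strand): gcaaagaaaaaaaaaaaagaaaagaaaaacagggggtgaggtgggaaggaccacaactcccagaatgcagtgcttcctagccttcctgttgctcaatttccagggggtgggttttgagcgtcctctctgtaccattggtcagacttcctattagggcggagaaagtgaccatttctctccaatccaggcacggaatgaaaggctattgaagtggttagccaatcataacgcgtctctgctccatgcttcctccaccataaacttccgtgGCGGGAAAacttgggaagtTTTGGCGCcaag
Mcm6 (chr1:128359656-128359955, minus strand): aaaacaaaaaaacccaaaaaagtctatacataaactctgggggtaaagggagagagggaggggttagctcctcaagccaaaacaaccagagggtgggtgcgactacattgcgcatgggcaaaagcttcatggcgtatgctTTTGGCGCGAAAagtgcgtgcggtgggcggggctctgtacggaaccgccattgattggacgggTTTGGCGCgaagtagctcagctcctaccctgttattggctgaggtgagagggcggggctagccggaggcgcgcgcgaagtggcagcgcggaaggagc
Counting the start as base 1, the Mcm3 matches begin at bases 20 and 39, both after the start. The 3 Mcm6 matches begin 110, 106 and 47 bases before it, and the first 2 overlap. A match is a description of letters and shows no binding.

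Of the licensing pair, Cdt1, the loader of the helicase, had 35.7 CPM in E12.5 DMSO, 26.7 with SB431542, 25.9 and 32.1 with SIS3 and 20.7 at E13.5. It was not called in any comparison (SIS3 log2 fold change -0.30, SE 0.38; E13.5 -0.79, SE 0.45). Cdc6, which recruits Cdt1 to the origin, was lower in both SIS3 libraries (11.1 and 12.8 CPM) than in DMSO (28.0 CPM), at -1.23 (SE 0.43, adjusted p = 0.15 in edgeR). The 2 genes thus differed in size of the SIS3 fold, and that difference was not tested.

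Among the 6 genes of helicase activation none was called, and the SIS3 folds ran from -1.18 (Gins1) to -0.23 (Mcm10), with a median of -0.62. Cdc45, the partner that activates the ring, had 20.1 CPM in E12.5 DMSO, 14.2 with SB431542, 13.2 and 10.7 with SIS3 and 7.16 at E13.5. E13.5 was its lowest library, with a log2 fold change of -1.49 (SE 0.58), the largest E13.5 fold in size of the 39 genes, which did not pass the test (edgeR adjusted p = 0.14). Mcm10, a scaffold of the replication fork, ran the other way between stages: 27.2 CPM in E12.5 DMSO, 21.3 with SB431542, 29.7 and 16.8 with SIS3 and 43.8 at E13.5. Its 2 SIS3 libraries lay on either side of DMSO, and its E13.5 fold of 0.69 (SE 0.49) was not called.

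No gene of the clamp and clamp loader was called. Pcna, the sliding clamp, had 110 CPM in E12.5 DMSO, 80.1 with SB431542, 53.3 and 83.01 with SIS3 and 93.0 at E13.5, and its SIS3 fold was -0.69 (SE 0.33, edgeR adjusted p = 0.32). All 4 other libraries were below E12.5 DMSO, and the 2 SIS3 libraries differed from each other by 0.64 on the log2 scale. Of the Pcna transcript's 31-base words, 23.3% also occur in other genes. Rfc5, a subunit of the loader that opens the clamp, had 39.4 CPM in E12.5 DMSO, 27.2 with SB431542, 28.0 and 21.4 with SIS3 and 19.6 at E13.5, with an E13.5 fold of -1.01 (SE 0.46, edgeR adjusted p = 0.20). Rfc4, of the same complex, had SIS3 values of 22.4 and 12.3 CPM around 18.2 in DMSO. Rfc2 and Rfc3 stood at 0.44 and 0.15 at E13.5.

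The 6 genes of polymerases and primase had SIS3 folds from -1.08 (Pola2) to -0.26 (Pola1), none called. Pola1, the catalytic subunit of polymerase alpha, had 95.2 CPM in E12.5 DMSO, 74.3 with SB431542, 93.4 and 65.8 with SIS3 and 103 at E13.5. SIS3 library 1 lay close to DMSO and library 2 was low, as was also the case for Prim1, the catalytic primase subunit (38.8 and 26.5 against 39.4 CPM). Pola2, the second subunit of polymerase alpha, had nearly the same value in both SIS3 libraries (29.2 and 29.3 CPM, against 61.7 in DMSO), at -1.08 (SE 0.32, edgeR adjusted p = 0.089). Pold1 and Pole, the catalytic subunits of the lagging and leading strand polymerases, had SIS3 folds of -0.97 and -0.38.

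The genes that finish Okazaki fragments were low in both SIS3 libraries. Lig1, the ligase that seals the fragments (ENSMUSG00000056394; chromosome 7, 13277283 to 13311433, plus strand), had 133 CPM in E12.5 DMSO, 92.6 with SB431542, 49.5 and 46.0 with SIS3 and 125 at E13.5. The SB431542 and SIS3 libraries were low and E13.5 was close to E12.5 DMSO, and the SIS3 fold was -1.48 (SE 0.29, edgeR adjusted p = 0.012). Fen1, the flap nuclease, had 38.7 CPM in DMSO and 13.03 and 18.6 with SIS3, a fold of -1.28 (SE 0.39) that was not called (edgeR adjusted p = 0.094). Fen1 is uncertain, since 84.2% of its exon bases overlap genes on the opposite strand and the sources used here do not say whether counting used the strand. The same holds for Gins2 (67.3%) and Chaf1a (52.5%).

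The nucleotide supply genes had folds below 0 with SIS3 and above 0 at E13.5. Rrm2, the regulatory subunit of ribonucleotide reductase (ENSMUSG00000020649; chromosome 12, 24708241 to 24714146, plus strand), had 73.4 CPM in E12.5 DMSO, 44.9 with SB431542, 23.3 and 22.9 with SIS3 and 82.9 at E13.5, with a SIS3 fold of -1.67 (SE 0.32, edgeR adjusted p = 0.0099). Tk1, thymidine kinase of the salvage pathway (ENSMUSG00000025574; chromosome 11, 117815526 to 117826092, minus strand), had 34.9 CPM in E12.5 DMSO, 22.1 with SB431542, 5.77 and 9.97 with SIS3 and 50.3 at E13.5, with a SIS3 fold of -2.13 (SE 0.42, edgeR adjusted p = 0.012). In both genes the SIS3 libraries were the lowest and E13.5 the highest. Rrm1, the large subunit of the reductase, had 178 CPM in E12.5 DMSO, 149 with SB431542, 155 and 126 with SIS3 and 215 at E13.5, a SIS3 fold of -0.34 (SE 0.30), and Tyms, thymidylate synthase, had -0.40. The 4 E13.5 folds ran from 0.18 to 0.53, none of them called. Rrm2 shares 12.8% of its transcript's 31-base words with other genes.

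The Rrm2 window, shown for contrast because Rrm2 fell without holding any of the E2F letters searched, held 1 CCAAT box.
Rrm2 (chr12:24708004-24708303, plus strand): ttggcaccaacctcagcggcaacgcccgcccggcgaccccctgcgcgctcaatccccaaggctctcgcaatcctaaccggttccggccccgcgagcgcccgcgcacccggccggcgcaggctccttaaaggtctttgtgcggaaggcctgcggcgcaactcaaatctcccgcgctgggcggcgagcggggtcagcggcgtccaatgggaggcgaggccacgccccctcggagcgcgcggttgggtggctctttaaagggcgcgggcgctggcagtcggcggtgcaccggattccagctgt

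Cyclin E and the E2F factors had the lowest SIS3 median of the roles (-2.12). Ccne2, 1 of the 2 E-type cyclins that drive S-phase entry (ENSMUSG00000028212; chromosome 4, 11191351 to 11204779, plus strand), had 23.2 CPM in E12.5 DMSO, 12.9 with SB431542, 3.79 and 2.44 with SIS3 and 15.9 at E13.5. Its SIS3 fold of -2.91 (SE 0.52, edgeR adjusted p = 0.0070) was the largest in size of the 39 genes. E2f2, an activating E2F factor (ENSMUSG00000018983; chromosome 4, 136172394 to 136196057, plus strand), had 14.6 CPM in E12.5 DMSO, 4.49 with SB431542, 3.30 and 1.63 with SIS3 and 33.4 at E13.5. It fell with SIS3 (-2.60, SE 0.56, edgeR adjusted p = 0.020). The fold with SB431542 was -1.70 (SE 0.64) and that at E13.5 1.19 (SE 0.63), neither of which was called; its SIS3 call was lost after removal of GC and length trends. E2f2 spanned the widest range of the set, lowest in both SIS3 libraries and highest at E13.5. Ccne1, the other E-type cyclin, had 29.4 CPM in DMSO, 24.9 with SB431542, 4.78 and 13.7 with SIS3 and 25.1 at E13.5. The 2 SIS3 libraries differed by 1.43 on the log2 scale, and its fold of -1.64 (SE 0.57) was not called (edgeR adjusted p = 0.19). E2f1, another activating factor, had 30.1 CPM in E12.5 DMSO, 23.6 with SB431542, 15.3 and 20.3 with SIS3 and 20.5 at E13.5, a SIS3 fold of -0.75 (SE 0.41) that was not called. In Ccne2, 17.4% of exon bases overlap Ints8 on the opposite strand.

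E2f2 is itself a gene of the family that reads these letters, and its window is shown for that reason. The match starts at base 40 of the first listed start, and the window at the second listed start held none.
E2f2 (chr4:136172024-136172323, plus strand): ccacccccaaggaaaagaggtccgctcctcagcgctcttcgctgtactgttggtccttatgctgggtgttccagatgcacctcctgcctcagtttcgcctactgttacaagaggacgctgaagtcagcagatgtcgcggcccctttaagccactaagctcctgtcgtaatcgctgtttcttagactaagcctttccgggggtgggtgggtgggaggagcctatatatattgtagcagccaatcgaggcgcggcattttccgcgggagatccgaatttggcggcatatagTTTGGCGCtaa

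Chromatin genes were mixed. Uhrf1, which reads hemimethylated DNA at the fork and recruits the maintenance methyltransferase (ENSMUSG00000001228; chromosome 17, 56303321 to 56323486, plus strand), had 170 CPM in E12.5 DMSO, 101 with SB431542, 46.3 and 62.2 with SIS3 and 112 at E13.5. It fell with SIS3 (-1.64, SE 0.30, edgeR adjusted p = 0.0079), and every library was below E12.5 DMSO. Of its transcript's 31-base words, 24.3% also occur in other genes. Chaf1a and Chaf1b, subunits of the histone chaperone CAF-1, had SIS3 folds of -0.69 and -0.31, neither called, and Chaf1b had 32.2 CPM in SIS3 library 2 against 31.9 in DMSO. Slbp, which binds the stem loop of replication-dependent histone mRNA, was the flattest gene in the set: 105 CPM in E12.5 DMSO, 89.0 with SB431542, 123 and 95.4 with SIS3 and 93.1 at E13.5.

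The Uhrf1 window with a match is that of its second listed start.
Uhrf1 (chr17:56304063-56304362, plus strand): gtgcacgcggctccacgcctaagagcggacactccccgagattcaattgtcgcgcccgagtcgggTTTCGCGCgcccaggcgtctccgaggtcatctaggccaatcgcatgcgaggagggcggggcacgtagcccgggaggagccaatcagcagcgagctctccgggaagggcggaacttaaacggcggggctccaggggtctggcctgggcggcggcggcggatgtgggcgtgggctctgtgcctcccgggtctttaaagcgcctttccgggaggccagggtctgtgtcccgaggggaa
The match begins 185 bases before that start, and the window at the first listed start held none.

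Of the 39 genes, 31 had a promoter entry; Ccne2, Gins1, Gins2, Gins4, Mcm4, Pole, Prim2 and Rfc2 had none. An E2F motif lay in a window of 13 of the 31 genes (41.9%), against 2.60% of the 27025 genes in the RefSeq table. The share was 31.3% of the other replication machinery genes and 43.5% of the other S-phase and E2F target genes. It was 31.6% of the G1 regulators and 3.85% of the mitotic genes. Genes with a motif had a median SIS3 fold of -0.97 (13 genes, 5 of them called) and genes without one -0.69 (18 genes, 2 called). The 8 genes with no promoter entry had -0.77 (1 called). Over all genes tested, 3.03% were called lower with SIS3. For SB431542 the medians were -0.45 with a motif, -0.35 without one and -0.28 with no entry. Differences between these classes were not tested. CCAAT, searched on both strands, lay in 56.8% of the windows of the set, 37.4% of all windows and 82.1% of windows of mitotic genes. No match says only that these letters are not in this window.

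**Figure D2:**
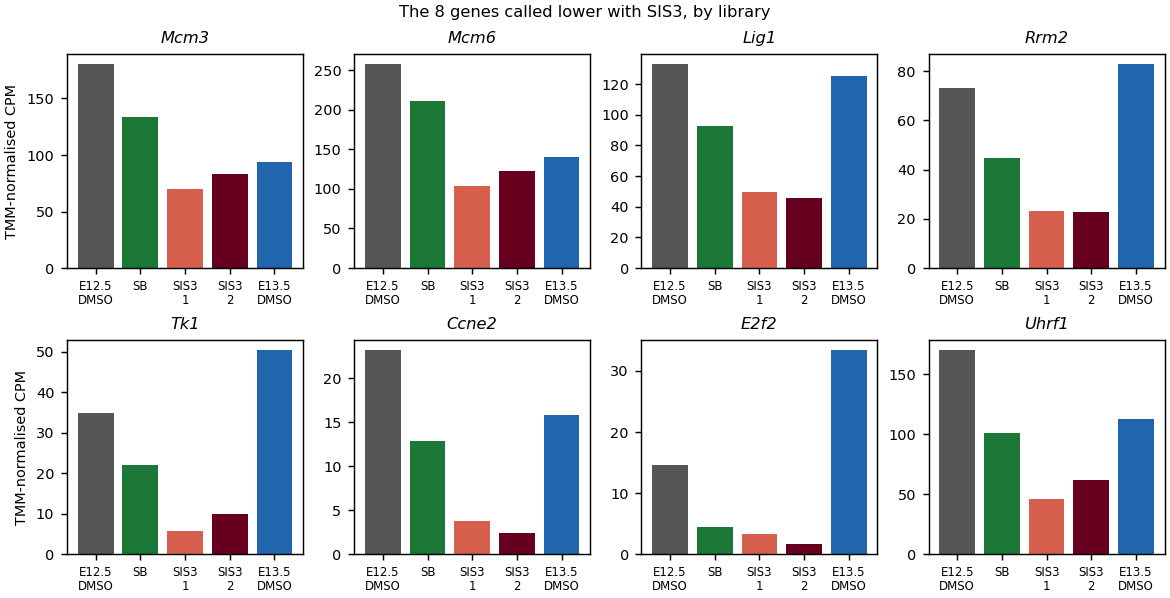
TMM-normalised CPM of the 8 genes called lower with SIS3 in each of the 5 libraries; each bar is 1 library and axes start at 0. The SIS3 bars are the lowest of each panel, SB431542 lies between DMSO and SIS3 in all 8, and E13.5 lies above E12.5 DMSO for Rrm2, Tk1 and E2f2 only.

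The 8 genes gave the same 8 calls with DESeq2 and with RLE size factors. With only genes of a mean of 5 CPM or more in the fit none was called, with adjusted p of 0.058 to 0.10 by edgeR, and with the libraries of the 2 groups alone only Uhrf1 and Ccne2 were.

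No difference with SB431542 passed the test. The members' median 95% confidence interval reached 0.89 to either side of a fold. The 4 largest folds in size were those of E2f2 (-1.70), Ccne2 (-0.85, SE 0.60), Uhrf1 (-0.75, SE 0.36) and Rrm2 (-0.71, SE 0.38). The adjusted p of each was 1 in edgeR. Only E2f2 passed an unadjusted p under 0.05, where 0.668% of all genes tested did so in the lower direction. For 36 of the 39 genes the interval from counting error alone, which leaves out biological spread, lay below a ratio of 1. At E13.5 that interval lay below 1 for 24 genes and above 1 for 11. The share over all genes was not computed, so these counts do not set the 39 genes apart.

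**Figure D3:**
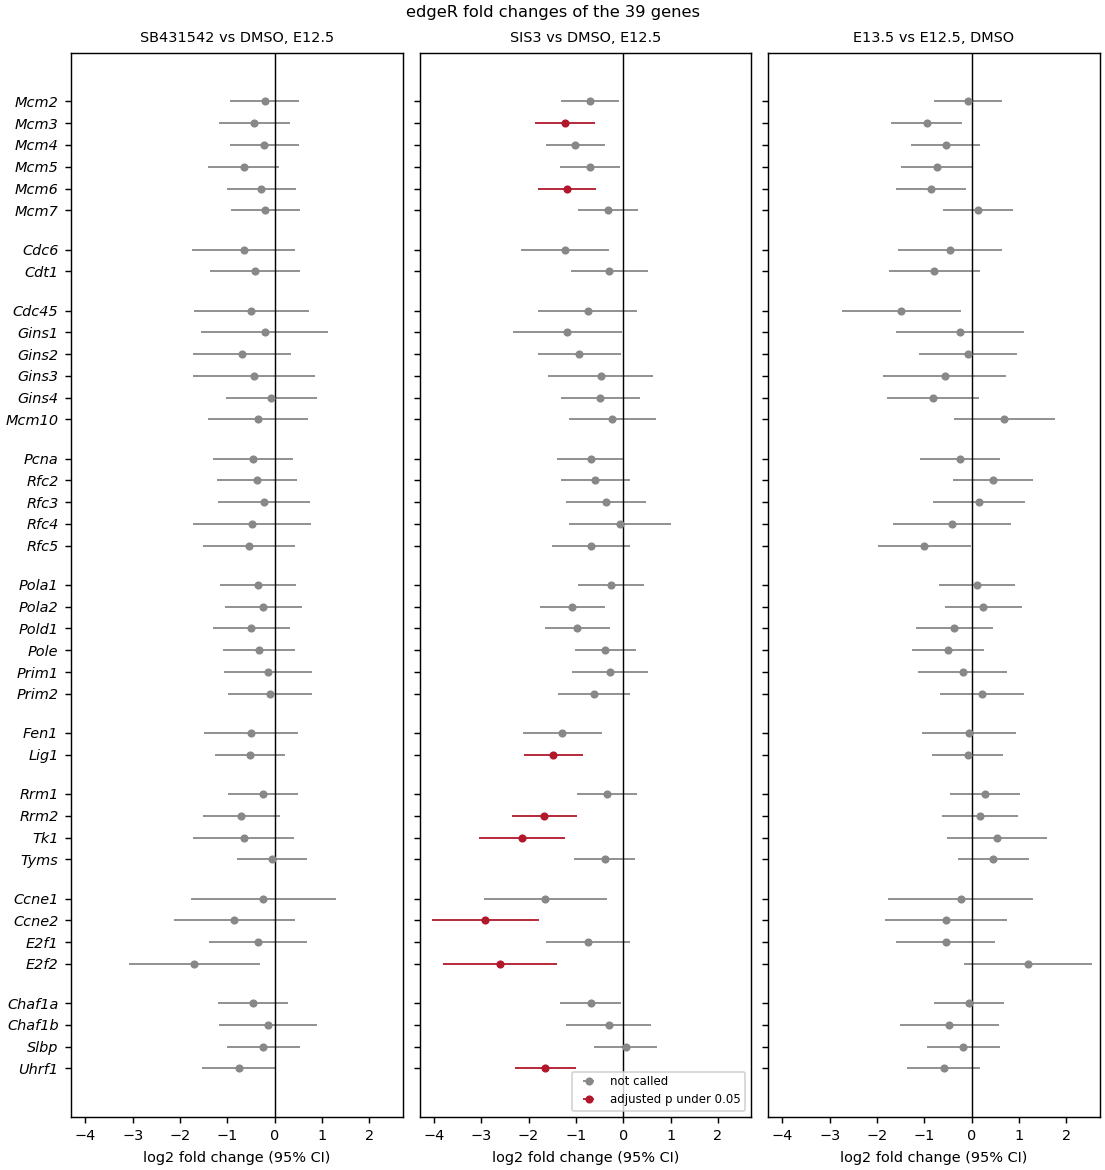
Fitted log2 fold change of each of the 39 genes with its 95% confidence interval, for the 3 comparisons; red marks adjusted p under 0.05. The 8 red genes are all in the SIS3 panel, and with this scaling every SB431542 point lies left of 0 (38 of 39 with library totals).

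Between the stages, nucleotide supply lay above 0 (median 0.37) and MCM2-7 below it (median -0.65, 5 of 6 below 0). Besides Cdc45, Rfc5, Mcm3 (-0.95, SE 0.35) and Mcm6 (-0.87, SE 0.34) passed an unadjusted p under 0.05, which makes 4 of 39, where 8.88% of all genes tested did so in the lower direction. The smallest adjusted p of the set was 0.12 in edgeR. With all 8 columns taken as replicates 13 genes were called lower and 6 higher at E13.5. That setting treats paired columns as independent samples. Outside the SIS3 pair their median squared difference was only 1.08 to 2.31 times that of binomial noise. The share of all genes called in that setting is not given here, so these counts do not set the 39 genes apart.

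Other genes of the pathway were taken from lists and are given first with SIS3, then at E13.5. Over all genes tested, 3.03% were called lower and 0.794% higher with SIS3. At E13.5 these shares were 1.17% and 4.06%. Of 38 other genes of the replication machinery, 2 fell and none rose, with a median of -0.39: Clspn, a checkpoint adaptor at the fork (-1.44, SE 0.32, edgeR adjusted p = 0.025), and Wdhd1, which links helicase and polymerase alpha (-1.25, SE 0.32, edgeR adjusted p = 0.048). Of 32 other S-phase and E2F target genes, 3 fell and none rose (median -0.42): Usp1 (-1.32), Brca1 (-1.52) and E2f8 (-1.85). Of these 5 calls DESeq2 kept Clspn and Usp1, and none was kept with a mean of 5 CPM or more or with the libraries of the 2 groups alone. At an unadjusted p under 0.05 in edgeR, 3 of the 38 genes were higher with SIS3 and 8 lower. Of the 32 genes, 1 was higher and 13 were lower. Over all 19022 genes tested, 1108 were higher and 2085 lower. At E13.5 Timeless, a fork protection factor, rose (1.32, SE 0.36, edgeR adjusted p = 0.049) and Exo1, a DNA exonuclease, fell (-1.66, SE 0.43, edgeR adjusted p = 0.042), and DESeq2 called neither. Both calls were also lost with a mean of 5 CPM or more, after removal of GC and length trends, without predicted genes, pseudogenes and receptor genes, and without either E13.5 column, and that of Timeless also with library totals. With SB431542 none of these genes was called by edgeR or DESeq2, and none had an unadjusted p under 0.05 (medians -0.21 and -0.32).

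G1 regulators had a median SIS3 fold of -0.17 over 25 tested genes, and edgeR called none, with 1 higher and 5 lower at an unadjusted p under 0.05. At that threshold 1108 of all 19022 genes tested were higher and 2085 lower. Cdkn1a, which encodes the kinase inhibitor p21, had 13.3 CPM in E12.5 DMSO, 10.3 with SB431542, 34.5 and 27.3 with SIS3 and 11.7 at E13.5 (SIS3 fold 1.21, SE 0.46, edgeR adjusted p = 0.19). Both SIS3 libraries were above the other 3. Cdkn2c, another inhibitor of G1 kinases, had a SIS3 fold of -1.46 (SE 0.61, edgeR adjusted p = 0.24).

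Between the 2 SIS3 libraries the replication genes differed in both directions and the mitotic genes in 1. For the 39 replication and S-phase genes the median log2 ratio of library 2 to library 1 was 0.05, with 23 genes higher and 16 lower in library 2. Single genes differed more: the median size of the log2 ratio was 0.32 before TMM scaling, and with TMM scaling it reached 1.43 for Ccne1, 0.84 for Gins1 and -0.84 for Rfc4 and E2f2. Of 30 mitotic genes, all 30 were lower in library 2 (median -1.54). Their sum was 2333 CPM in E12.5 DMSO, 1444 with SB431542, 2608 and 852 in the 2 SIS3 libraries and 2245 at E13.5. The mitotic list therefore lay near DMSO in library 1 (median log2 ratio 0.04) and far below it in library 2 (-1.57), while the replication genes lay at -0.72 and -0.76. In the edgeR fit the mitotic median with SIS3 was -0.55, with 27 of 30 below 0 and none called. Mki67, the proliferation antigen, had 436 CPM in E12.5 DMSO and 466 and 132 with SIS3. Replication-dependent histone genes, whose mRNAs lack a poly(A) tail, had a median SIS3 fold of -1.44, with 28 of 63 tested called lower and 2 higher. In the comparisons within the SMARTer kit their median was -0.61 with SB431542, where 59 were below 0 and none was called by edgeR (3 lower at an unadjusted p under 0.05), and -0.45 at E13.5, where 5 were called lower and 2 higher. Single histone folds were extreme: H2ac19 stood at 14.89 with SIS3 and 15.25 at E13.5, Hist1h2bq at 10.46 and 6.44. Hist1h2br stood at -8.09 with SIS3. Sequence shared between histone genes was not measured, so their single folds and calls are uncertain.

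**Figure D4:**
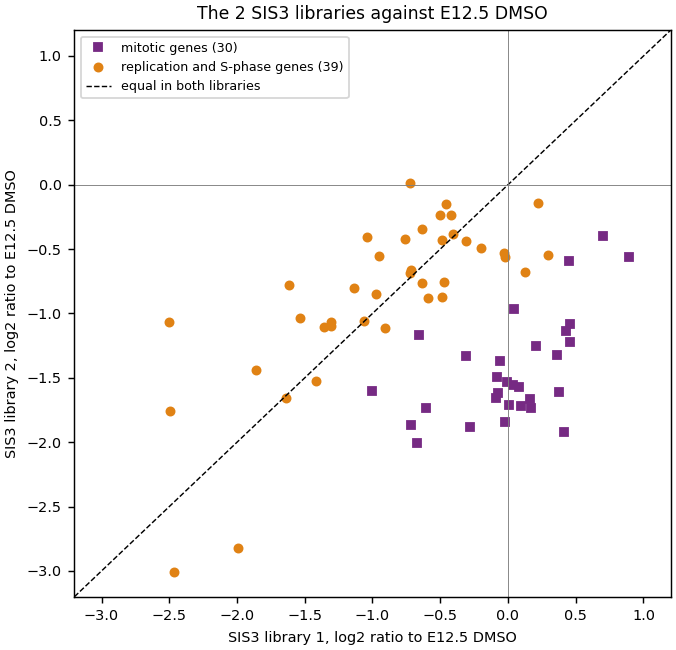
Log2 ratio to E12.5 DMSO in SIS3 library 1 (horizontal) and library 2 (vertical), with 1 point per gene. The 39 replication and S-phase genes lie on both sides of the diagonal of equal values (23 above, 16 below), Ccne1 far above it, and all 30 mitotic genes lie below it.

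**Figure D5:**
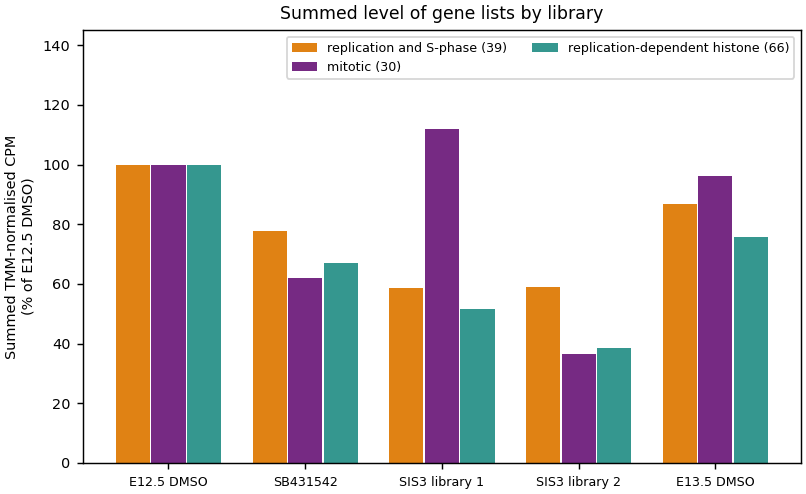
Summed TMM-normalised CPM of the replication and S-phase, mitotic and replication-dependent histone genes in each library, as a percent of E12.5 DMSO. The replication genes stood at 58.6% and 58.8% in the SIS3 libraries, where the mitotic genes stood at 112% and 36.5%.

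Markers of several other cell types were also lower with SIS3, and those of others were not. Over all genes tested, 3.03% were called lower with SIS3. Endothelial markers summed to 460 CPM in E12.5 DMSO and 55.9 and 55.6 with SIS3 (10 of 12 called lower), and macrophage markers to 78.9, 15.2 and 12.8 CPM (6 of 11 called lower, with C1qa at 0 in library 1 and Adgre1, C1qb and C1qc at 0 in library 2). Muscle markers summed to 846, 293 and 239 CPM (4 of 12 lower) and mesenchyme markers to 7927, 4471 and 3755 CPM (1 of 11 lower, Col1a1). Col1a1 alone held 3413, 604 and 581 CPM of the mesenchyme sums, so they do not stand for the whole list. Of the 11 mesenchyme markers, 7 lay below DMSO in SIS3 library 1 and 10 in library 2. Pericyte markers summed to 420, 217 and 268 CPM (3 of 7 tested called lower). Erythroid markers stood at 1103 CPM in DMSO and 1404 and 617 with SIS3 (1 of 12 called lower, Hba-a2), and neural and Schwann markers at 45.7, 39.6 and 44.7 CPM (none of 9 tested called by edgeR, 1 lower at an unadjusted p under 0.05). Epithelial markers stood at 188 CPM in DMSO, 89.7 in SIS3 library 1 and 328 in library 2, and all 14 tested were higher in library 2 than in library 1. With SB431542 the epithelial markers summed to 70.2 CPM, and all 14 had a fold below 0, none called. That test takes its spread from the SIS3 pair, where the median log2 ratio of library 2 to library 1 for these markers was 2.00. The lack of calls thus does not measure variation among SB431542 or DMSO germs. The part of these lists in the values of the replication genes was not tested.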

How the data were processed

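Expression was measured by RNA-seq. The authors' deposited values are estimated counts per gene, whole numbers and unscaled. Per the submitters' processing notes the build was mm10 and the tools included DESeq2, deepTools, HISAT2, SAMtools and Salmon, with no roles; the annotation used for counting: not given in the sources used here. Columns were matched to samples by name, and 0 columns were left unmatched. Coordinates, mRNA lengths and shared 31-base words come from GENCODE M21 (GRCm38).

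edgeR 4.0.16 (R 4.3.3) was fitted to 5 libraries with TMM factors, filterByExpr, a robust quasi-likelihood test and Benjamini-Hochberg adjustment over all genes at 0.05. Spread was estimated from the SIS3 pair alone (1 residual degree of freedom, 12.49 more from the prior, common biological coefficient of variation 29.3%), on the assumption that single libraries vary like that pair. Named genes were those called, the 4 largest folds per comparison above a mean of 5 CPM, and the most abundant of each role; Ccne1, Cdc6, Fen1, Pola2, Mki67 and other genes outside that rule were chosen after their values were seen. DESeq2 1.42.0 and other filters, scalings and columns were tried as alternatives, and the scripts were tested on simulated data. The members and lists were chosen with earlier results of these data known.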

Additional observations from a re-analysis of the deposited data

How the results depend on the processing

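Directions of the members' medians held under every alternative run. With SIS3, the number of genes called lower was 8; it was 0 with a mean of 5 CPM or more, 30 with all 8 columns as replicates and no replicate block, 29 with the replicate block, 2 with the libraries of the 2 groups only, and 5 after removal of GC and length trends; the cause was not tested. Leaving out 1 column in turn gave 6 to 8, and leaving out a SIS3 library left no residual degree of freedom, so that only folds could be given. The median moved from -0.70 to -0.66 with DESeq2, RLE factors or without predicted genes, pseudogenes and receptor genes, to -0.63 with library totals (an alternative chosen after seeing the data), and ran from -0.76 to -0.67 when 1 column was left out. With SB431542, 0 genes were called lower, 6 with all 8 columns and 1 (Rrm2) with the replicate block. The median was -0.32 with library totals and ran from -0.42 to -0.35 when 1 column was left out. At E13.5, all 8 columns gave 6 genes higher and 13 lower, and the replicate block 4 higher and 11 lower. The median was -0.18 with DESeq2 or RLE factors, -0.14 with a mean of 5 CPM or more, -0.15 with the GC and length trends removed, -0.17 without predicted genes, and -0.23 to -0.19 when 1 column was left out. Replicate numbers do not pair the samples: between-group correlations of deviations ran from -0.017 to 0.0052. Over all genes, SIS3 calls of lower genes ran from 106 (mean of 5 CPM or more) to 3607 (all 8 columns), against 576. For SB431542 and E13.5 the calls over all genes with all 8 columns are not given here. A single lone library per group limits all SB431542 and E13.5 folds.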
